A study of Rattus norvegicus with 6 samples.

Results

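The 10 genes described here encode enzymes, and 1 helper protein, that make prostanoids and leukotrienes from arachidonic acid: Pla2g4a, Ptgs1, Ptgs2, Ptgis, Tbxas1, Ptges, Ptgds, Alox5, Alox5ap and Ltc4s. They were chosen by name, with earlier results of these data known. Every probe set whose single annotated symbol is one of them was taken, however dim. This gave 10 of the 10411 genes and 11 of the 15866 probe sets of the array, 2 of them for Ptges and 1 for each of the other 9 genes. RNA came from endothelial cells of rat liver, freed with collagenase and caught on antibody-coated magnetic beads, and was hybridised to 6 Affymetrix rat 230A arrays. Of these, 3 arrays held RNA from adult male Wistar rats with cirrhosis and 3 held RNA from control Wistar rats. How cirrhosis was induced, which antigen the beads bound and the sex and age of the controls are not stated in the labels. Nor do the labels say whether each array had its own rat or a pool, so the p-values cover the spread among 6 arrays, part of which may be technical.

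Prostanoids and leukotrienes are short-lived lipid mediators. Cytosolic phospholipase A2 frees arachidonic acid from membranes. Cyclooxygenases turn it into prostaglandin H2, from which separate terminal synthases make prostacyclin, thromboxane and prostaglandins E2 and D2. The 5-lipoxygenase branch instead makes leukotriene A4, the precursor of leukotriene B4 and of the cysteinyl leukotrienes. In the liver, prostacyclin relaxes and thromboxane and cysteinyl leukotrienes constrict the vessels that set portal pressure. Kupffer cells, mast cells, platelets and stellate cells are known sources of one or more of these mediators besides endothelium.

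The deposited values are linear signals. Differences are cirrhotic minus control on the log2(signal + 16) scale, which understates the change of dim genes, and were tested with limma and Benjamini-Hochberg adjustment over the 9519 probe sets left after the dimmest 40% had been set aside. With 0.05 as the threshold, 25.4% of them passed, 12.3% being higher and 13.2% lower on the cirrhotic side. Endothelial markers were bright in both groups, and their summed signal over 14 pan-endothelial probe sets was between 21268 and 22370 on cirrhotic arrays and between 40872 and 42491 on control arrays. Of these 14, 13 fell. In bulk RNA, fewer cells of a type and less RNA per cell cannot be told apart. The signal of 18 probe sets of stellate cells, myofibroblasts and smooth muscle summed to between 20787 and 37831 on cirrhotic and to between 5680 and 6458 on control arrays, with 9 of 13 tested probe sets higher and 0 lower. The part of a changed mix of cells in the differences of single genes was not tested.

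Of the 11 member probe sets 7 were bright enough to be tested. Ptgs2, Ptgis, Pla2g4a and Alox5ap rose and Ptgs1 fell in cirrhotic arrays, while Tbxas1 and Ltc4s did not pass. These 5 calls are 71.4% of 7, against the 25.4% of all tested probe sets. The filter shaped this share and the median given next. The control means of Ptgs2 (105.9), Ptgis (97.8) and Pla2g4a (125.8) lay under its threshold of about 127, which they passed through their cirrhotic signal. Without the filter 6 of the 11 passed, against 15.5% of all probe sets. Members were chosen with earlier results of these data known, so these shares are no test. The median difference of the 7 was 1.46, and that of all tested probe sets was -0.02. For 7 of the 11, all cirrhotic values lay on one side of all control values, 5 higher and 2 lower, against 35.9% of all 15866 probe sets.

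**Figure D1:**
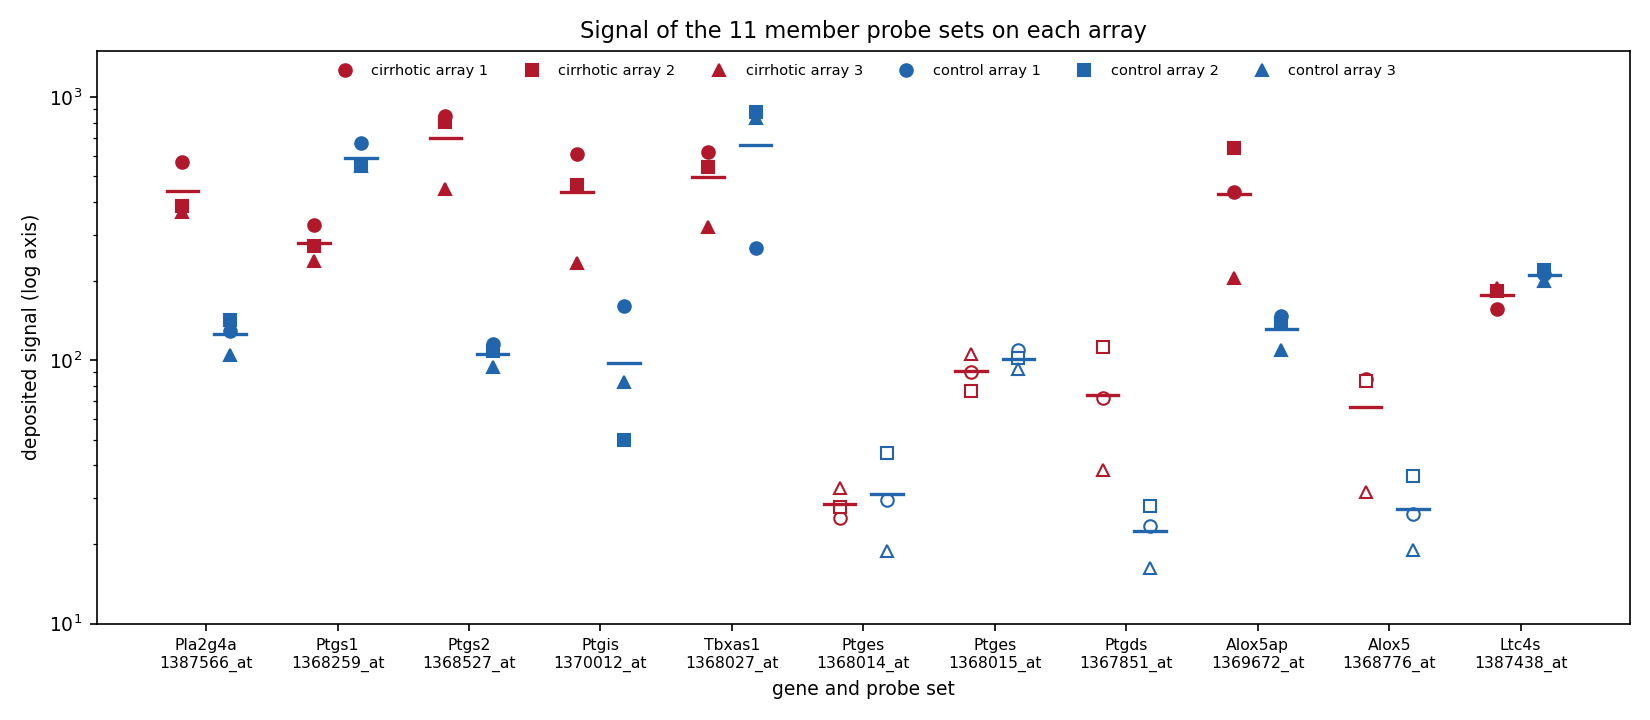
Deposited signal (log axis) of each member probe set on each array, with cirrhotic arrays in red left of control arrays in blue. Symbols give the array number, short lines the group mean, and open symbols the probe sets too dim to be tested. The signals of Ptgs2 lie between 447.1 and 846.7 on cirrhotic and between 94.3 and 115.2 on control arrays, and those of Ptgs1 lie the other way round.

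Release of arachidonic acid was represented by Pla2g4a, the cytosolic phospholipase A2. Its signal (probe set 1387566_at) was 568.7, 384.6 and 364.8 on cirrhotic arrays 1, 2 and 3, against 129.6, 142.6 and 105.2 on control arrays 1, 2 and 3. Every cirrhotic value was above every control value, and cirrhotic array 1 was the highest. The difference was 1.66 (SE 0.20, n = 3 per group), or 3.17-fold, with limma's adjusted p = 0.00142. The call held without any one of the 6 arrays, with adjusted p-values up to 0.00925.

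The cyclooxygenase pair moved in opposite directions. Ptgs2, the inducible cyclooxygenase-2 (probe set 1368527_at), had signals of 846.7, 804.7 and 447.1 on cirrhotic arrays 1, 2 and 3, against 115.2, 108.3 and 94.3 on the control arrays. The control values lay close together, and the lowest cirrhotic value, on array 3, was still far above them. Ptgs2 rose by 2.50 (SE 0.24), or 5.67-fold, with limma's adjusted p = 0.000719, the largest difference of any member. Ptgs1, the constitutive cyclooxygenase-1 (probe set 1368259_at), had signals of 326.8, 271.8 and 239.2 on cirrhotic arrays and of 670.1, 550.7 and 545.0 on control arrays. All its cirrhotic values were below all its control values. It fell by 1.04 (SE 0.16), or 2.05-fold, with limma's adjusted p = 0.00348. Both calls held without any one array, with adjusted p-values up to 0.00608 for Ptgs2 and 0.0155 for Ptgs1. The difference of Ptgs2 exceeded that of Ptgs1 by 3.54 log2 units. Beside the fall of Ptgs1, the 14 pan-endothelial probe sets had a median difference of -1.06. The part of lower endothelial signal in the fall of Ptgs1 was not tested.

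The upstream sequences of both cyclooxygenase genes and of Pla2g4a are shown because these 3 genes had the smallest adjusted p-values among the members, 2 of them higher and 1 lower. Each is the 250 bases before the RefSeq gene start in build GRCr8, read 5′ to 3′ on the gene's strand, and capitals mark a match to any of 6 motifs on either strand. The motif CACGTG is the E-box, TGACG is the core of the cyclic AMP response element and TTNNGNAA is the C/EBP site. The letters TATAAA stand for the TATA box, GGGCGG for the GC box and CCAAT for the box of that name. Ptgs2 lies at chr13:64713813-64714062 on the plus strand, Ptgs1 at chr3:39981169-39981418 on the plus strand and Pla2g4a at chr13:64572353-64572602 on the minus strand.
Ptgs2: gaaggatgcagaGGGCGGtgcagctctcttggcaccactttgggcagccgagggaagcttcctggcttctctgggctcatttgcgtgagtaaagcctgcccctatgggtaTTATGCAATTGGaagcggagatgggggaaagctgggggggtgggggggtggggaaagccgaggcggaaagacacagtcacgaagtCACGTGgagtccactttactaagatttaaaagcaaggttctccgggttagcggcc
Ptgs1: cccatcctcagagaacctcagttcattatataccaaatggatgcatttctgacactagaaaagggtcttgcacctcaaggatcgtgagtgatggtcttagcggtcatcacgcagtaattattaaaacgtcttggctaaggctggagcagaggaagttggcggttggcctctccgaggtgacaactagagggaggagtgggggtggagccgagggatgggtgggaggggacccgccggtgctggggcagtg
Pla2g4a: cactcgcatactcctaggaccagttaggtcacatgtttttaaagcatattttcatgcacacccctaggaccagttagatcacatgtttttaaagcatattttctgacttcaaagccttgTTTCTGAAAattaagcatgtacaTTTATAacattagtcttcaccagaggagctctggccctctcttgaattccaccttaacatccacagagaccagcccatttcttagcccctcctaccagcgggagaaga

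The window of Ptgs2 held CACGTG starting 55 bases before the gene start, TTNNGNAA starting 140 and GGGCGG starting 238 bases before it, and CCAAT on the opposite strand, which overlaps the TTNNGNAA match. CACGTG was present in 5.59% of 33469 rat gene windows of the same length, TTNNGNAA in 37.2%, GGGCGG in 30.5% and CCAAT in 34.0%. Among the 8 member genes with a window, CACGTG was found in that of Ptgs2 alone. The window of Pla2g4a held TTNNGNAA in 2 overlapping matches on opposite strands and TATAAA on the opposite strand, a motif found in 12.9% of windows. The window of Ptgs1 held none of the 6 motifs, and TGACG, found in 18.2% of windows, was in none of the 8. A match describes these letters and is not evidence of a bound site. In the rat gene table Pla2g4a and Ptgs2 are neighbours on chromosome 13 that point away from each other, with 0 protein-coding genes and the 2 entries Tmem208-ps1 and Ptgs2os between them.

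Of the terminal synthases, Ptgis rose. Ptgis, the prostacyclin synthase (probe set 1370012_at), had signals of 609.7, 464.8 and 235.0 on cirrhotic arrays 1, 2 and 3, against 161.2, 49.7 and 82.6 on control arrays 1, 2 and 3. The groups did not overlap, but each was wide, with the highest over the lowest signal at 2.59 in cirrhotic and 3.24 in control arrays. The difference was 2.01 (SE 0.43), or 4.04-fold, with limma's adjusted p = 0.0124. The call ended without cirrhotic array 1 (adjusted p = 0.0542) and, narrowly, without control array 3 (adjusted p = 0.0503), with differences of 1.73 and 1.97.

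Tbxas1, the thromboxane synthase (probe set 1368027_at), did not pass. Its signal was 618.3, 544.8 and 322.2 on cirrhotic arrays 1, 2 and 3, against 266.6, 877.6 and 831.8 on control arrays 1, 2 and 3. Control array 1 was the lowest of all 6 arrays, below every cirrhotic value, while control arrays 2 and 3 were above every cirrhotic value. The difference was -0.28 (SE 0.45, 95% interval -1.31 to 0.76, limma's adjusted p = 0.686). Without control array 1 it was -0.82 with adjusted p = 0.0889, and without control array 2 it was 0.01. Control array 1 also stood apart in RNA quality, having the highest ratio of signal between the 3′ and 5′ ends of actin (1.57), GAPDH (1.37) and hexokinase (7.42), where the cirrhotic arrays had at most 1.27, 1.15 and 2.91. The part of this in the value of Tbxas1 was not tested. Ptgis was the other member that set this array apart, with a log2 gap to the mean of control arrays 2 and 3 of 1.14, while the gap was -1.62 for Tbxas1 and between -0.03 and 0.28 for the other member probe sets.

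The synthases of prostaglandins E2 and D2 were too dim to be tested. For Ptges, the inducible microsomal prostaglandin E synthase, probe set 1368015_at read 90.0, 76.4 and 105.9 on cirrhotic and 109.2, 102.2 and 92.3 on control arrays. Its groups overlapped, and an exact two-sided permutation test gave p = 0.4. The other Ptges probe set, 1368014_at, read 25.2, 27.7 and 32.8 on cirrhotic and 29.6, 44.6 and 18.8 on control arrays, and 4 of these 6 values were at or under the brightest bacterial control probe set of their array, taken as background (exact permutation p = 0.9). In a fit without the filter on dim probe sets, the 95% intervals of the 2 differences were -0.58 to 0.30 and -0.58 to 0.49. A change of the size seen for Ptgs2 lay outside that of 1368015_at, as far as such a dim signal can show it. With most values at background, 1368014_at cannot show whether Ptges changed.

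Ptgds, the lipocalin-type prostaglandin D synthase (probe set 1367851_at), read 71.7, 112.4 and 38.4 on cirrhotic arrays, against 23.4, 27.9 and 16.3 on control arrays. All control values and that of cirrhotic array 3 were at or under background, and the groups did not overlap. The exact permutation test gave p = 0.1, the smallest that 3 against 3 arrays allow. Without the filter, limma gave a difference of 1.15 (SE 0.32, adjusted p = 0.0498), in a fit in which 15.5% of all probe sets passed.

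In the leukotriene branch Alox5ap rose. Alox5ap (probe set 1369672_at) encodes the 5-lipoxygenase-activating protein, which presents arachidonic acid to the enzyme and has no catalytic activity of its own that is known. Its signal was 437.7, 638.5 and 206.2 on cirrhotic arrays 1, 2 and 3, against 147.1, 138.4 and 109.9 on control arrays. The groups did not overlap, and the cirrhotic values spanned 3.10-fold, the widest span of any member within that group, with array 3 lowest. The difference was 1.46 (SE 0.36), or 2.75-fold, with limma's adjusted p = 0.0214. The call ended without cirrhotic array 1 (adjusted p = 0.0815), control array 2 (0.0575) or control array 3 (0.0812), and the difference was 1.89 without cirrhotic array 3.

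Alox5, the 5-lipoxygenase itself (probe set 1368776_at), read 85.3, 83.3 and 31.5 on cirrhotic arrays, against 26.0, 36.4 and 19.0 on control arrays. Cirrhotic arrays 1 and 2 were above all control arrays, whereas cirrhotic array 3 lay among them and, like every control value, at or under background. The exact permutation test gave p = 0.2, and limma without the filter gave a difference of 0.88 (SE 0.33, adjusted p = 0.12). Ltc4s, which joins leukotriene A4 to glutathione (probe set 1387438_at), read 157.1, 184.0 and 188.9 on cirrhotic arrays and 212.3, 219.7 and 200.7 on control arrays. Its groups were close together without overlapping, and the difference of -0.24 (SE 0.14, 95% interval -0.57 to 0.09) did not pass (limma's adjusted p = 0.254).

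**Figure D2:**
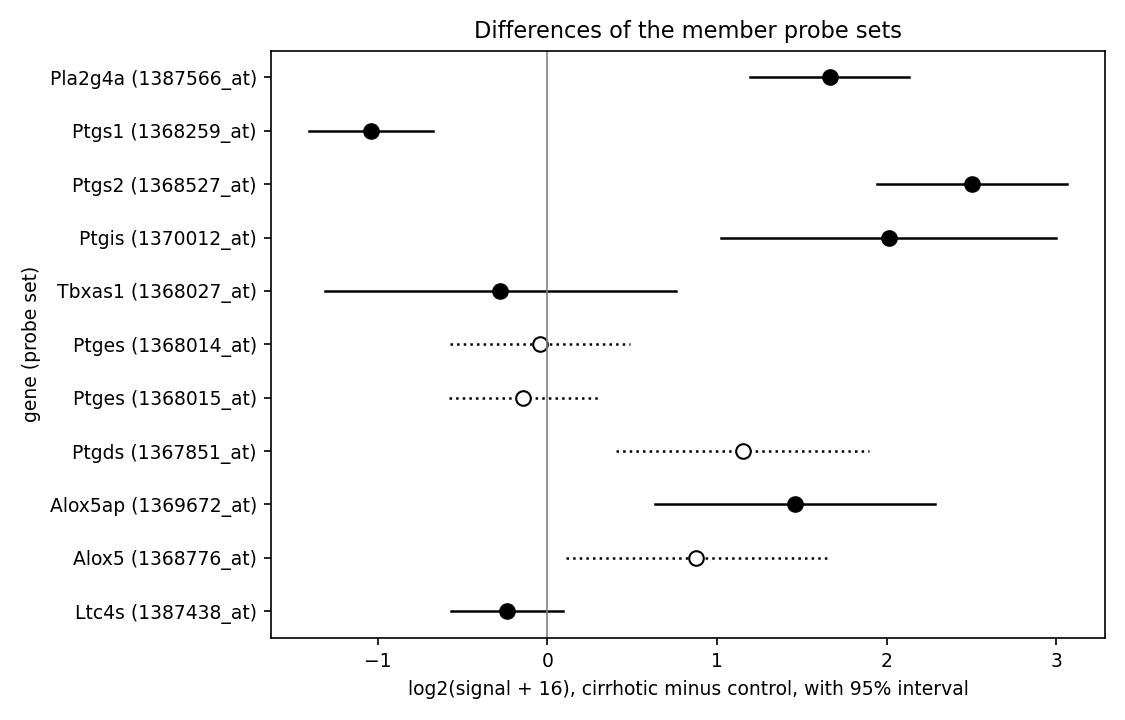
Cirrhotic minus control difference of each member probe set on the log2(signal + 16) scale, with its 95% interval from limma, n = 3 arrays per group. Filled points with solid lines are tested probe sets, and open points with dotted lines come from the fit without the filter on dim probe sets. The intervals of Ptgs2, Ptgis, Pla2g4a and Alox5ap lie above 0 and that of Ptgs1 lies below 0.

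Control array 3 gave the lowest control signal for 9 of the 11 member probe sets, and cirrhotic array 3 the lowest cirrhotic signal for 8. The shares over all probe sets were not counted. For cirrhotic array 3 the exceptions were both Ptges probe sets and Ltc4s. Its log2 value was below the mean of cirrhotic arrays 1 and 2 by 1.29 for Alox5ap, 1.13 for Ptgis, 1.08 for Alox5, 0.96 for Ptgds, 0.86 for Ptgs2 and 0.82 for Tbxas1, and by 0.35 and 0.30 for Pla2g4a and Ptgs1. Marker lists of several blood and bile duct cell types were also low on that array. Their lowest cirrhotic signal was on array 3 for 12 of 13 mast cell, 9 of 10 Kupffer cell and macrophage, 6 of 7 neutrophil and monocyte, 10 of 11 T and NK cell and 9 of 9 cholangiocyte probe sets, with median log2 gaps of -0.99, -1.03, -1.21, -0.81 and -1.82. The platelet list was not low there, with a median gap of 0.12 and the lowest cirrhotic signal on array 3 for 1 of 6 probe sets. The stellate cell, myofibroblast and smooth muscle list had a median gap of 0.01 and the pan-endothelial list one of 0.09. The hepatocyte list went the other way, with a median gap of 0.76, the lowest cirrhotic signal on array 3 for 0 of 16 probe sets and its highest sum there. Without this array the differences were 2.79 for Ptgs2, 2.39 for Ptgis, 1.78 for Pla2g4a and -0.94 for Ptgs1, and all passed.

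The summed signals of these lists are given beside the members, since several of these cell types can make the same enzymes. The 13 mast cell probe sets summed to between 1607 and 6081 on cirrhotic and to between 844 and 1172 on control arrays, and 4 were bright enough to be tested, 3 of them higher and 1 lower. Cpa3, a mast cell carboxypeptidase and 1 of those that rose, had 1261, 1192 and 392.7 on cirrhotic against 114.4, 167.0 and 86.0 on control arrays. Kit, the 1 that fell, had 147.3, 109.1 and 133.3 on cirrhotic against 376.7, 382.2 and 313.4 on control arrays (-1.36, SE 0.16, limma's adjusted p = 0.00131). The 10 macrophage probe sets summed to between 5456 and 11991 on cirrhotic and to between 4138 and 8928 on control arrays, ranges that overlap. Of these, 2 rose and 1 fell. Laptm5 rose by 1.40 (SE 0.28) and Lyz2 by 1.32 (SE 0.28), the latter call being lost without control array 3. Clec4f fell by 3.22 (SE 0.52, limma's adjusted p = 0.00427). Neither Cd68 (0.40, SE 0.38, adjusted p = 0.472) nor Csf1r (0.16, SE 0.29, adjusted p = 0.727) passed. The same held for C1qa, C1qb and C1qc, with differences of -1.01, -0.85 and -0.90. The 7 neutrophil and monocyte probe sets summed to between 725 and 2538 on cirrhotic and to between 495 and 680 on control arrays. The 1 bright enough to be tested, Cd14, did not pass (0.64, SE 0.28, limma's adjusted p = 0.122). S100a9, a neutrophil calcium-binding protein too dim to be tested, read 1022, 639.0 and 45.0 on cirrhotic against 49.5, 10.7 and 29.0 on control arrays, and its groups overlapped. Also untested, Ncf1 and Itgam were higher without overlap, while Cxcr2 had a lower cirrhotic mean. The 6 platelet probe sets summed to between 927 and 976 on cirrhotic and to between 472 and 670 on control arrays, and 2 were bright enough to be tested. Of these, Selp, the P-selectin of platelets and endothelium, named after its values were seen, rose by 1.94 (SE 0.21, limma's adjusted p = 0.000937). Itga2b, the platelet integrin, did not pass (-0.56, SE 0.25, adjusted p = 0.133). That Selp signal, 317.2, 549.1 and 421.6 on cirrhotic against 89.3, 92.8 and 110.3 on control arrays, made up much of the cirrhotic sums. Among the untested, Pf4 had a higher cirrhotic mean, and Gp5 and Ppbp had lower ones. The other Selp probe set (0.28) was under background on 5 of the 6 arrays. Relative to the control mean, the median level of the platelet list was between -0.08 and 0.15 on cirrhotic arrays. On control arrays it was between -0.35 and 0.21, so these ranges overlap. The 11 T and NK cell probe sets summed to between 3740 and 7067 on cirrhotic and to between 3611 and 4987 on control arrays, with 5 of 9 tested higher and 0 lower. The 9 cholangiocyte probe sets summed to between 5241 and 13475 on cirrhotic and to between 771 and 1540 on control arrays, with 7 of 8 tested higher and 0 lower. The part of these cells in the differences of the members was not tested.

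**Figure D3:**
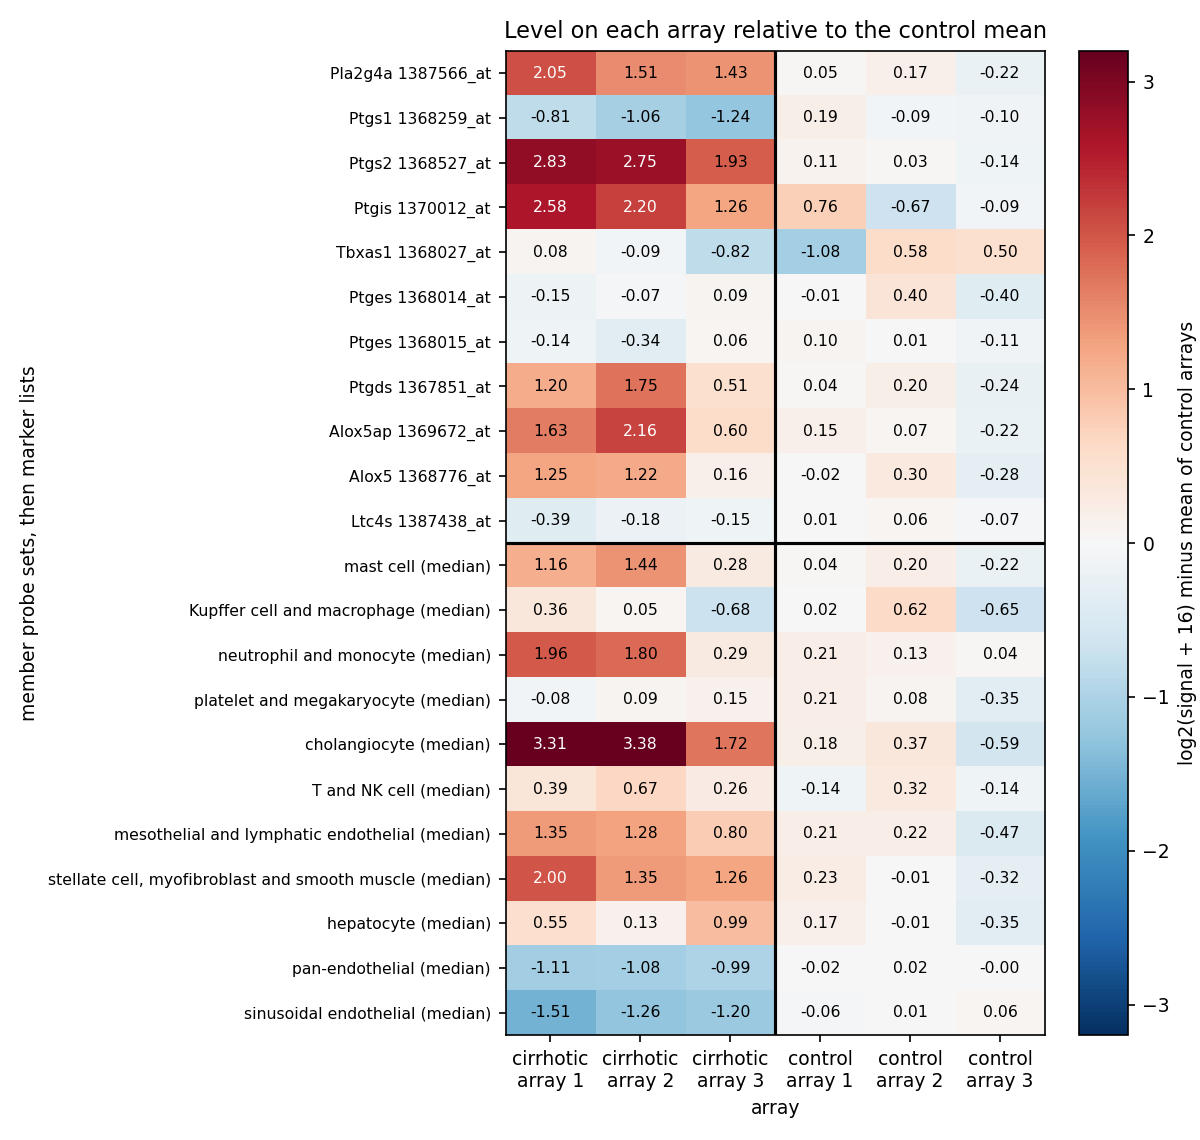
Level of each member probe set (upper block) and median level of each marker list (lower block) on each array, as log2(signal + 16) minus the mean of the control arrays, with cirrhotic arrays left of control arrays. Alox5ap reads 1.63, 2.16 and 0.60 on cirrhotic arrays 1, 2 and 3, and Pla2g4a 2.05, 1.51 and 1.43.

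Beyond the members, 69 genes of 102 in 8 lists of arachidonate metabolism had a probe set of their own, 85 in all, of which 56 were tested. Of these 56, 11 rose and 8 fell, which is 33.9% against the 25.4% of all tested probe sets, with a median difference of 0.17. The lists, too, were chosen with earlier results of these data known, so this share is no test. The count was 11 without cirrhotic array 1, 12 without control array 2 and 11 without control array 3, and with median centring it was 10 higher and 11 lower.

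Receptors stood on both sides. Of 4 tested probe sets for prostanoid receptors and their partners 2 rose and 1 fell. Ptger4, a receptor for prostaglandin E2, read 309.1, 326.4 and 212.1 on cirrhotic against 96.3, 143.2 and 73.7 on control arrays (1.33, SE 0.26, limma's adjusted p = 0.00844). Ptgfrn, a membrane protein that binds the prostaglandin F2 alpha receptor and is not itself a prostanoid receptor, read 743.5, 574.8 and 451.1 against 124.6, 90.6 and 114.5 in controls (2.25, SE 0.21, adjusted p = 0.000596). Tbxa2r, the thromboxane receptor, read 504.6, 355.5 and 409.7 on cirrhotic arrays and 612.0, 795.5 and 665.8 on control arrays. It fell by 0.69 (SE 0.17), and limma's adjusted p of 0.0215 did not hold when cirrhotic array 2, control array 2 or control array 3 was left out. All 4 measured leukotriene receptors, Cysltr1, Cysltr2, Ltb4r and Ltb4r2, were too dim to be tested.

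Of the enzymes next to the members, Lta4h, which makes leukotriene B4, rose by 0.61 (SE 0.16, limma's adjusted p = 0.0254), a call lost without any one of the control arrays or cirrhotic array 1. It read 867.0, 1108 and 770.4 on cirrhotic and 592.6, 594.5 and 574.7 on control arrays. Mgst2, a microsomal glutathione transferase that can make leukotriene C4, and Cotl1, which binds 5-lipoxygenase, did not pass (0.54, SE 0.29 and 0.57, SE 0.34). Among 6 tested probe sets in the list of other phospholipases none passed. The nearest were Pla2g6 (-0.45, SE 0.15, limma's adjusted p = 0.0608), Pla2g15 (-0.62, SE 0.22, adjusted p = 0.0785) and Plaa (0.24, SE 0.12, adjusted p = 0.169). Plaa is a phospholipase-activating protein and not itself a phospholipase. At an unadjusted p under 0.05, 2 of these 6 would count, both lower. Of 11 tested probe sets of other prostaglandin synthases and reductases 1 rose and 2 fell. Akr1b1, aldose reductase, which can also make prostaglandin F2 alpha, fell by 0.63 (SE 0.11) and the related reductase Akr1b8 fell by 1.10 (SE 0.16), while the glutathione transferase Gstm5 rose by 1.01 (SE 0.20), a call lost without cirrhotic array 1. The cytosolic Ptges3 and membrane-bound Ptges2, the other prostaglandin E synthases, had differences of 0.00 (SE 0.11) and 0.01 (SE 0.12).

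In the list of eicosanoid transport and breakdown, 4 of 10 tested probe sets rose and 1 fell. Ggt5, which trims leukotriene C4 to leukotriene D4, read 434.9, 409.5 and 557.0 on cirrhotic against 1586, 1700.3 and 1782 on control arrays and fell by 1.83 (SE 0.15, limma's adjusted p = 0.000457). Dpep1, the dipeptidase that acts on leukotriene D4 next, rose by 1.16 (SE 0.25, adjusted p = 0.0142) and its other probe set by 1.27 (SE 0.31). Both calls were lost without cirrhotic array 1, and that of the other probe set also without control array 2 or 3. Cyp4f5, of a family that hydroxylates leukotriene B4, rose by 0.97 (SE 0.16).

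Of 7 tested probe sets of epoxygenases, omega-hydroxylases and epoxide hydrolases 2 rose and 2 fell. The omega-hydroxylases Cyp4a3 and Cyp4a1 rose by 1.72 (SE 0.34) and 1.43 (SE 0.37), Cyp4a1 losing its call without any one of the control arrays or cirrhotic array 1. The male-specific Cyp2c11 fell by 2.26 (SE 0.42). Hepatocytes are known to express these genes, and 16 hepatocyte marker probe sets summed to between 52149 and 89083 on cirrhotic and to between 43922 and 57895 on control arrays, with 6 of 14 tested higher and 0 lower. Of 12 tested probe sets for arachidonate supply and re-esterification 1 rose and 2 fell. Lpcat3, an acyltransferase that returns arachidonate to phospholipids, fell by 0.67 (SE 0.13, limma's adjusted p = 0.00968) on one probe set and had -0.39 (adjusted p = 0.0538) on the other. Mboat7, a similar acyltransferase, fell by 0.42 (SE 0.13) and the desaturase Fads2 rose by 1.22 (SE 0.37), and both of these calls were lost without any one of the control arrays, cirrhotic array 1 or cirrhotic array 3.

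**Figure D4:**
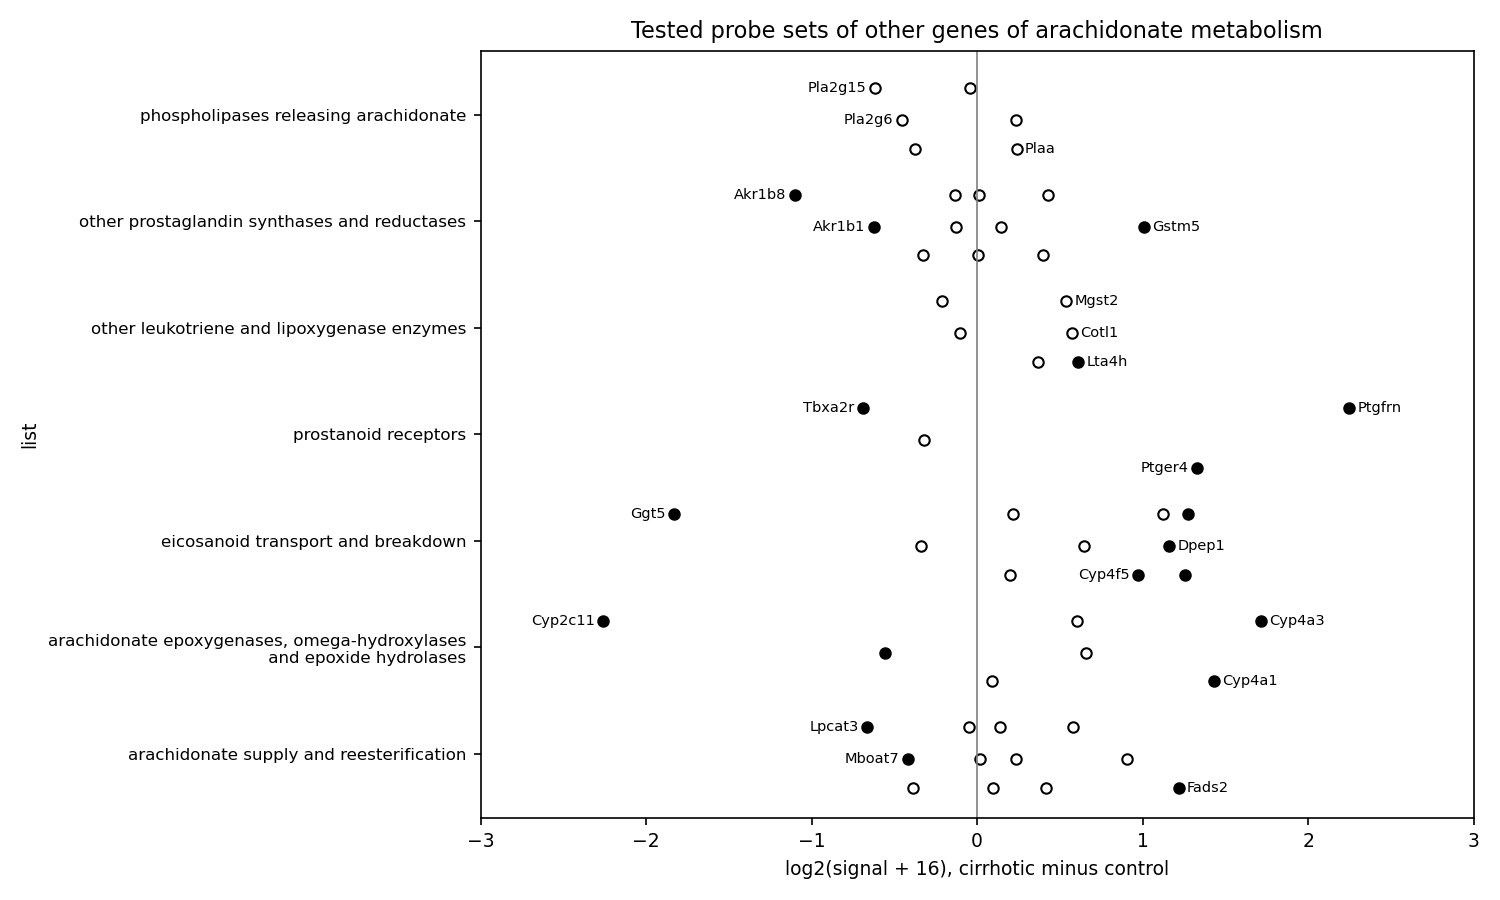
Cirrhotic minus control difference on the log2(signal + 16) scale for the tested probe sets of 7 lists of arachidonate metabolism, members left out. Filled points had an adjusted p under 0.05, and names mark up to 3 genes of each list with the smallest p. Ptgfrn lies highest at 2.25 and Cyp2c11 lowest at -2.26.

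For each called member, the nearest profiles were sought among 8170 tested probe sets with 1 symbol, by the root mean square distance over the 6 arrays after subtracting the control mean. Nearest to Pla2g4a were Mgp and Eln, the genes of matrix Gla protein and elastin, at distances of 0.10 and 0.14 log2 units. Nearest to Ptgs2 were Fblim1 and Slc8a1, at 0.20 and 0.21, and nearest to Ptgs1 were Tpd52 and Phf20l1, at 0.10 each. Alox5ap lay nearest to Crip1 and the cathepsin gene Ctsz, at 0.15 and 0.16, and Ptgis nearest to Ptprs and Tes, at 0.29 and 0.36. Ctsz read 765.7, 1183 and 393.9 on cirrhotic and 304.6, 338.7 and 216.2 on control arrays. Its order of cirrhotic arrays was that of Alox5ap, which a search for near profiles over the same arrays favours.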

How the data were processed

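The deposited values are linear signal intensity, 1 per probe set and array. No label or header names the summary software. The mean without the lowest and highest 2% lay between 397.5 and 398.0 on all arrays, so the authors' scaling was kept. A change in total RNA per cell cannot be seen after such scaling. Groups came from the sample titles, and the control array without a number was called 1. No 2 arrays shared more than 47 identical values.

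Values became log2(signal + 16). The 57 control probe sets and the dimmest 40% by mean over all arrays (6347 probe sets, under a signal of about 127) were left out. A probe set bright in 1 group only can fall under this threshold, or pass it through that group alone. The cirrhotic-minus-control contrast was fitted in limma 3.58.1 under R 4.3.3 (lmFit and eBayes, prior variance following the mean signal), two-sided, Benjamini-Hochberg over 9519 probe sets, threshold 0.05. Probe sets too dim for this received an exact permutation test. Background was the brightest of 27 bacterial control probe sets on each array, between 21.7 and 49.9. Array number limits the precision.

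Symbols came from the platform annotation (1 symbol for 12783 probe sets, several for 312, none for 2771), and 12748 of the 12783 were found in the GRCr8 gene table with 0 changed. Upstream windows came from RefSeq, GRCr8, where 8 of 10 members matched. Ptgis and Alox5ap had no entry.

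By rule, named genes were all members, up to 3 genes of each list with the smallest p, the 2 nearest to each called member, and a few cell type markers. Further markers lay outside this rule, namely Selp, Pf4, Gp5, Ppbp, Kit, Laptm5, Lyz2, Clec4f, C1qa, C1qb, C1qc, Cd14, Ncf1, Itgam and Cxcr2. So did a few other genes of the pathway lists. Members and lists were chosen with earlier results of these data known. Gp1bb, among the markers set by the rule, was not analysed here.

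The test was run on simulated data with the real means and spreads, 200 of 9519 probe sets changed in each of 10 simulations. It recovered 18.2% of changes of 1.5-fold, 63.2% at 2-fold, 90.2% at 4-fold and 97.0% at 8-fold, and 5.09% of calls were false. Noise was drawn independently for each value, and far fewer probe sets were changed than the 25.4% that passed in the data. These shares therefore need not hold for the real calls.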

Additional observations from a re-analysis of the deposited data

How the results depend on the processing

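Alternatives were quantile normalization, median centring, added constants of 1 and 64, no filter and a filter at 60%, other variance models, array weights, shared-sequence probe sets left out, array number as a replicate block, and each array left out. Ptgs2, Pla2g4a and Ptgs1 kept direction and call in each of these in which they were tested, with differences from 2.12 to 2.79, 1.39 to 1.92 and -1.15 to -0.93. Ptgis and Alox5ap kept their direction, from 1.61 to 2.39 and 1.11 to 1.89, and lost their calls as stated without single arrays. The untested Ptgds had a difference of 1.15, and of 0.64 with an added constant of 64. The count of called members was 5, and 3 to 5 with 1 array left out. It was 1 with the filter at 60%, which left 2 of 7 to test. The count over all probe sets was 2421, and 1341 to 2472 with 1 array left out, the low values without control array 3 (1341) and cirrhotic array 1 (1366). It was 3772 with array weights. The other genes of the pathway had 19 calls, and 11 to 21 with 1 array left out. Titles of both groups carry the numbers 2 and 3, but same-numbered arrays did not deviate together (r = -0.01 and -0.16 across probe sets), so the numbers are not taken as pairs. With the replicate block on these 4 arrays, 908 probe sets, 8 other pathway probe sets and 5 members passed, from fewer arrays than the 6 of the other fits. Median centring moved the median of all tested differences to -0.10, from -0.02, and gave 925 higher and 1480 lower. Signal over background limits Ptges, Ptgds, Alox5 and the leukotriene receptors.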

Other observations

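Other markers of the cell types, chosen by name, gave these values. Pecam1 and Stab1, of general and sinusoidal endothelium, had differences of -1.21 (SE 0.15) and -1.64 (SE 0.16) and both fell. Pdgfrb, of pericytes and stellate cells, rose by 2.68 (SE 0.29), and Pdpn, of lymphatic endothelium and mesothelium, by 1.77 (SE 0.28). Krt19, of bile ducts (2.07, SE 0.76), was the 1 of 8 tested cholangiocyte probe sets that did not pass, and the other 7 rose. Msln, of mesothelium (-0.02, SE 0.25), and Alb, of hepatocytes (0.20, SE 0.09 and 0.33, SE 0.12 on its 2 probe sets), did not pass either, whereas 6 of the 14 tested hepatocyte probe sets rose and 0 fell. Ms4a2, a mast cell receptor chain, was too dim to be tested and read 107.4, 127.5 and 50.9 on cirrhotic against 32.6, 47.5 and 38.2 on control arrays (probe set 1369399_at). Its other probe set read 77.1, 94.7 and 51.4 on cirrhotic and 74.0, 73.1 and 50.6 on control arrays, and there the groups overlapped. S100a8, too dim to be tested, read 166.6, 189.6 and 2.1 on cirrhotic against 5.7, 0.9 and 2.1 on control arrays, and its groups overlapped.

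Some phospholipase genes outside the members were too dim to be tested but had unusual values, picked after these had been seen. Pla2g12a read 90.5, 172.9 and 276.9 on cirrhotic arrays 1, 2 and 3, against 50.9, 24.0 and 15.6 on control arrays 1, 2 and 3, without overlap. Pla2g1b, the pancreatic phospholipase, read 22.5, 40.6 and 41.2 on cirrhotic and 108.5, 103.3 and 312.8 on control arrays, also without overlap. Pla2g2a, the secreted phospholipase of inflammation, read 248.6 on control array 1 and between 3.9 and 9.5 on the other 5 arrays.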
